A study of Mus musculus with 15 samples.

Results

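The Gpr genes are the mouse genes whose symbol is Gpr followed by a number, a naming used for seven-pass membrane proteins that resembled G protein-coupled receptors when they were found. They were chosen by symbol alone from the corrected count table, and there were 73 of them among 24084 genes. The name marks how a gene was found, not what it does: several members were later matched to a ligand, and others encode proteins of the Golgi or the lysosome. The group is therefore called the Gpr genes here, not orphan receptors.

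G protein-coupled receptors sit in a cell's membrane, bind a ligand outside the cell and pass the signal to a heterotrimeric G protein inside. The alpha subunit of that G protein then turns adenylyl cyclase up or down or opens the calcium pathway, while receptor kinases, arrestins and RGS proteins end the signal. Macrophages use such receptors to sense acid, lysophospholipids, oxysterols, fatty acids and metabolites in the tissue they live in. Many receptors of this class have their whole protein in a single coding exon, so reads from stray genomic DNA fall on them as easily as reads from RNA.

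The 15 libraries are low-input RNA-seq of cells from C57BL/6J mice, gated ex vivo on the macrophage protein F4/80 together with the leukocyte protein CD45. Sympathetic ganglia gave 3 libraries (SAM ganglia) and sympathetic nerve fibers out of inguinal fat 2 (SAM fibers). The sATM group is subcutaneous fat (2 libraries), the vATM group is visceral fat (2), SpM stands for spleen (3), and the microglia came from brain (3). Ganglia plus fibers are called SAM, and SpM 2 means the spleen library with replicate number 2 in its title. No source used here gives the animals' ages, sexes or any treatment, or says what ND in the titles means. The series title concerns the handling of norepinephrine by these sympathetic neuron-associated macrophages. Tissues came from 10 mice and the labels do not say which libraries share animals, so p-values reflect only how far these libraries scatter, part of which can be technical. Digestion also differed by tissue: 30 minutes of collagenase for fat, spleen and brain, hyaluronidase for 30 minutes then collagenase for 15 minutes for fibers, and collagenase for 10 minutes then trypsin for 30 minutes for ganglia, all at 37 °C.

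The corrected table summed to between 2.55 M and 12.52 M counts in each library (M is mega). The 8 core macrophage markers summed to between 4518 and 12700 counts per M counts (CPM) in every library, microglia markers to 9196 to 10700 CPM in microglia, and red pulp markers to 7344 to 12310 CPM in spleen. Stray DNA was read from 1125 olfactory receptor genes, most of which are silent outside the nose, though a few are reported in macrophages: their corrected density ran from 0.0532 counts per kb in SAM ganglia 1 to 15.99 in SAM fibers 1. The libraries numbered 1 had the lowest density of their group except in fibers. The fiber libraries correlated at 0.681 with each other across genes on log2(CPM + 1), against 0.855 to 0.973 for the other pairs within groups.

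The DNA just upstream of the start site is shown for 4 members that differed among the tissues: Gpr65 and Gpr35, high in spleen, and Gpr84 and Gpr165, high in microglia. Each run is the 250 bases before the start, 5′ to 3′ on the gene's strand, from RefSeq on GRCm38.p6. Capitals mark matches on either strand to GAGGAAG, a core of the kind bound by the macrophage factor PU.1, or to TGANTCA, the kind bound by AP-1.
Gpr65: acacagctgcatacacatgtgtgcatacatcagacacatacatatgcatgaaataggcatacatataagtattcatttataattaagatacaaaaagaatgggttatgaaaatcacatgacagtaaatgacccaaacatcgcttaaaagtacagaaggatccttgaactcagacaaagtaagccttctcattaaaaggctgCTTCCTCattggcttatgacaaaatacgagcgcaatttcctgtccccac
Gpr35: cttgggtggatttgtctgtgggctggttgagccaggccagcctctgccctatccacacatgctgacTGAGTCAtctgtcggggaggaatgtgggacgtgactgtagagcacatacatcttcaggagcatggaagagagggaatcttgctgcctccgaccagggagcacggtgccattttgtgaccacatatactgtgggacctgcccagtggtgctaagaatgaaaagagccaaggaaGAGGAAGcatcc
Gpr84: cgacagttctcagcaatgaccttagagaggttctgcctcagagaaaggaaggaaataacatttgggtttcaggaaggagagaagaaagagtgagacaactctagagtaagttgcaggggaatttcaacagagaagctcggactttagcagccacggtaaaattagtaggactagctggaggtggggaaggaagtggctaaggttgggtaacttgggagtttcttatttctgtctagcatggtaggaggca
Gpr165: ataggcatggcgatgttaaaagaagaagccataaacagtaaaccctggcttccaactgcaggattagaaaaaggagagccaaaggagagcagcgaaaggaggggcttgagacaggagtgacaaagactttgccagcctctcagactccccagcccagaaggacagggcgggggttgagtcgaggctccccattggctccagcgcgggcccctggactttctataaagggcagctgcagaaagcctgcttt

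These windows are chr12:98268385-98268634 (plus strand) for Gpr65, chr1:92978653-92978902 (plus) for the inner start of Gpr35, chr15:103310439-103310688 (minus) for Gpr84 and chrX:96713218-96713467 (plus) for Gpr165. Gpr65 carried the PU.1-type letters on the opposite strand from 49 bases upstream of its start. Gpr35 carried them from 12 bases upstream of its inner start, with the AP-1-type letters from 184 bases upstream. The window at the outer start of Gpr35, 5784 bases before the inner one, held neither. There were 14 windows for 11 of the 15 members whose level differed among groups. GAGGAAG was found in 2 of those 14 windows and TGANTCA in 1, and over 32851 windows of the same length the shares were 10.6% and 6.75%. The 2 motifs share no bases in these windows, and a match is a description of letters only.

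Most Gpr genes did not rise above a line drawn from the olfactory receptor genes. In each library a member was set against the 95th percentile of the olfactory receptor genes' corrected count per kb, and it was counted for a group when it lay above that line in every library of the group. By this measure 48 of 73 members lay above background in no group, 21 in 1 to 5 groups and 4 in all 6: Gpr34, Gpr183, Gpr108 and Gpr160. The groups held 16 members above background in ganglia, 7 in fibers, 19 in sATM, 20 in vATM, 17 in spleen and 15 in microglia. These counts follow the line as well as the cells: the line was 33.1 counts per kb in SAM fibers 1 and 0 in SAM ganglia 1, where a single read lifts a gene over it. Without SAM fibers 1 the fibers' count was 14, and without SAM ganglia 3, the most DNA-laden of its group, the ganglia's was 24. In SAM fibers 1 the line was 33.1 in the raw gene-body counts too. Gpr107 kept 5.54% of its raw counts, introns included, in fibers and was not counted there. The line may thus be too high for members whose corrected values were not whole numbers, 28 of the 48. The share of all genes above it was not computed.

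**Figure D1:**
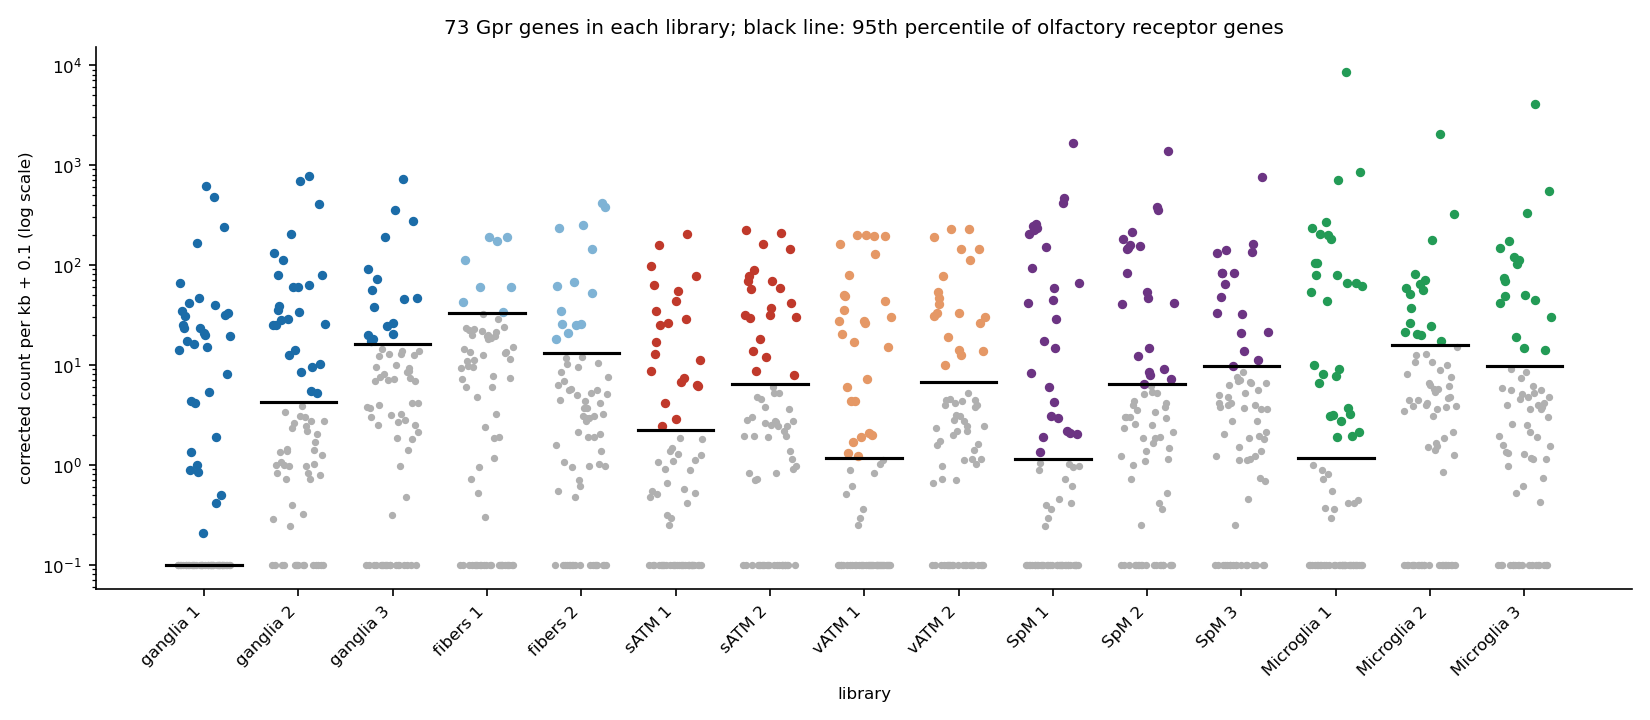
Corrected count per kb + 0.1 (log scale) of all 73 Gpr genes in each of the 15 libraries. Black lines are the library's 95th percentile of olfactory receptor genes and coloured points lie above it; 8 genes do so in SAM fibers 1 and 34 in SAM ganglia 1.

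Most members listed with whole values lay above background in no group. The table's values were whole numbers in every library for 26 members (tolerance 1e-09), of which 23 have 1 coding exon, and 47 members had values that were not whole. Whole values do not mark genes without introns, since only 8 of the 72 members with an exon count have 1 exon. Gpr55, for example, has whole values and 2 exons over 21518 bases. Of those 26, 20 lay above background in no group. They are described together because of that, so a low density is part of how they were chosen. Their summed density was 12.9 counts per kb in SAM fibers 1 and 0.302 in microglia 1. In the 10 libraries with at least 1000 olfactory receptor counts it was 0.666 to 2.26 times the olfactory density. In the other 5, with 61 to 346 such counts, it was 1.498 times (microglia 1), 1.61 times (sATM 1), 2.68 times (vATM 1), 4.33 times (SpM 1) and 23.2 times (SAM ganglia 1). Gpr183, which was listed in the same whole-number form, behaved otherwise: its density was 704 counts per kb in microglia 1 and 178 in microglia 2, where the olfactory density was 0.202 and 6.84. At that density DNA alone would give Gpr183 about 20.1 counts in microglia 2, which held 523.

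**Figure D2:**
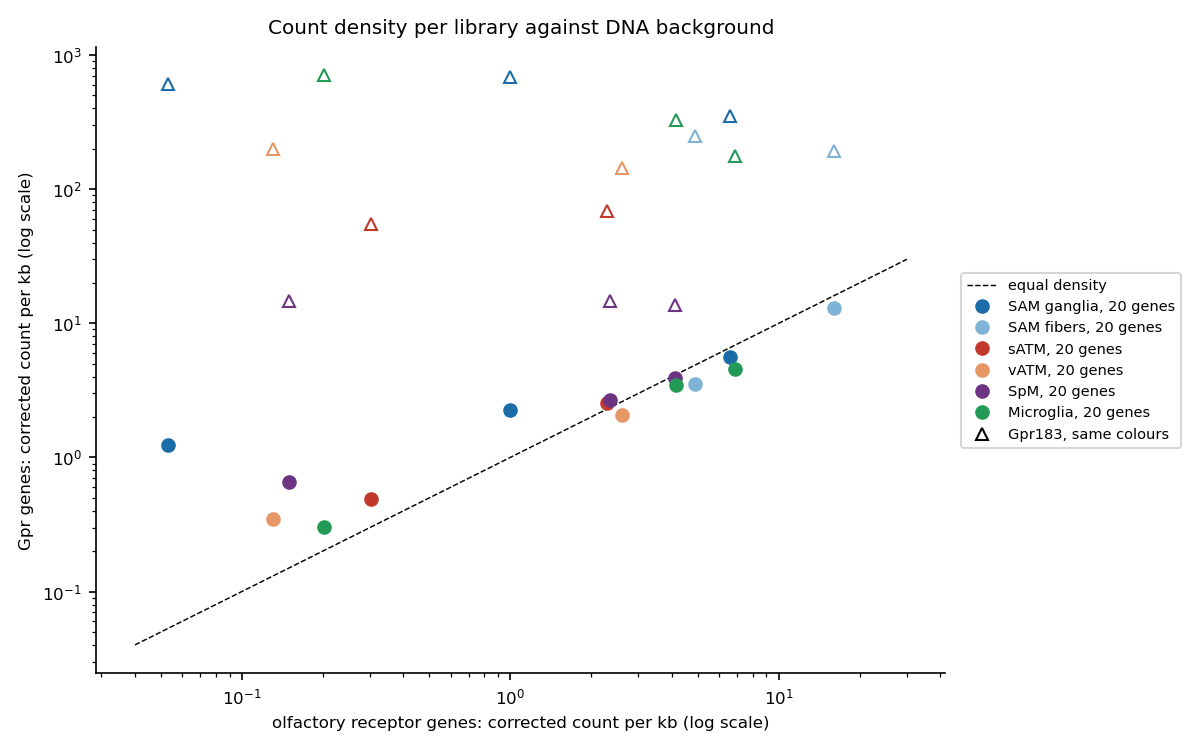
Corrected count per kb of 20 Gpr genes with whole values that were above background in no group (filled circles) and of Gpr183 (open triangles) against the olfactory receptor genes' density, both axes log, 1 point per library. The circles lie near the dashed line of equal density in the 10 libraries with the most DNA, at 0.666 to 2.26 times, and Gpr183 lies above it in all 15.

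Of the 73 members, 46 passed the low-count filter and were tested, and 15 of these differed among the 6 groups (edgeR, adjusted p below 0.05), or 32.6%, where 22.2% of all 15289 tested genes did. All 15 had at least 5 CPM and stood above background in every library of their highest group. They are taken below by role, first the receptors for acid, then those for lipids and metabolites, then the intracellular proteins and the remaining receptors. In these sorted bulk samples, fewer cells of a type and less RNA per cell cannot be told apart.

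**Figure D3:**
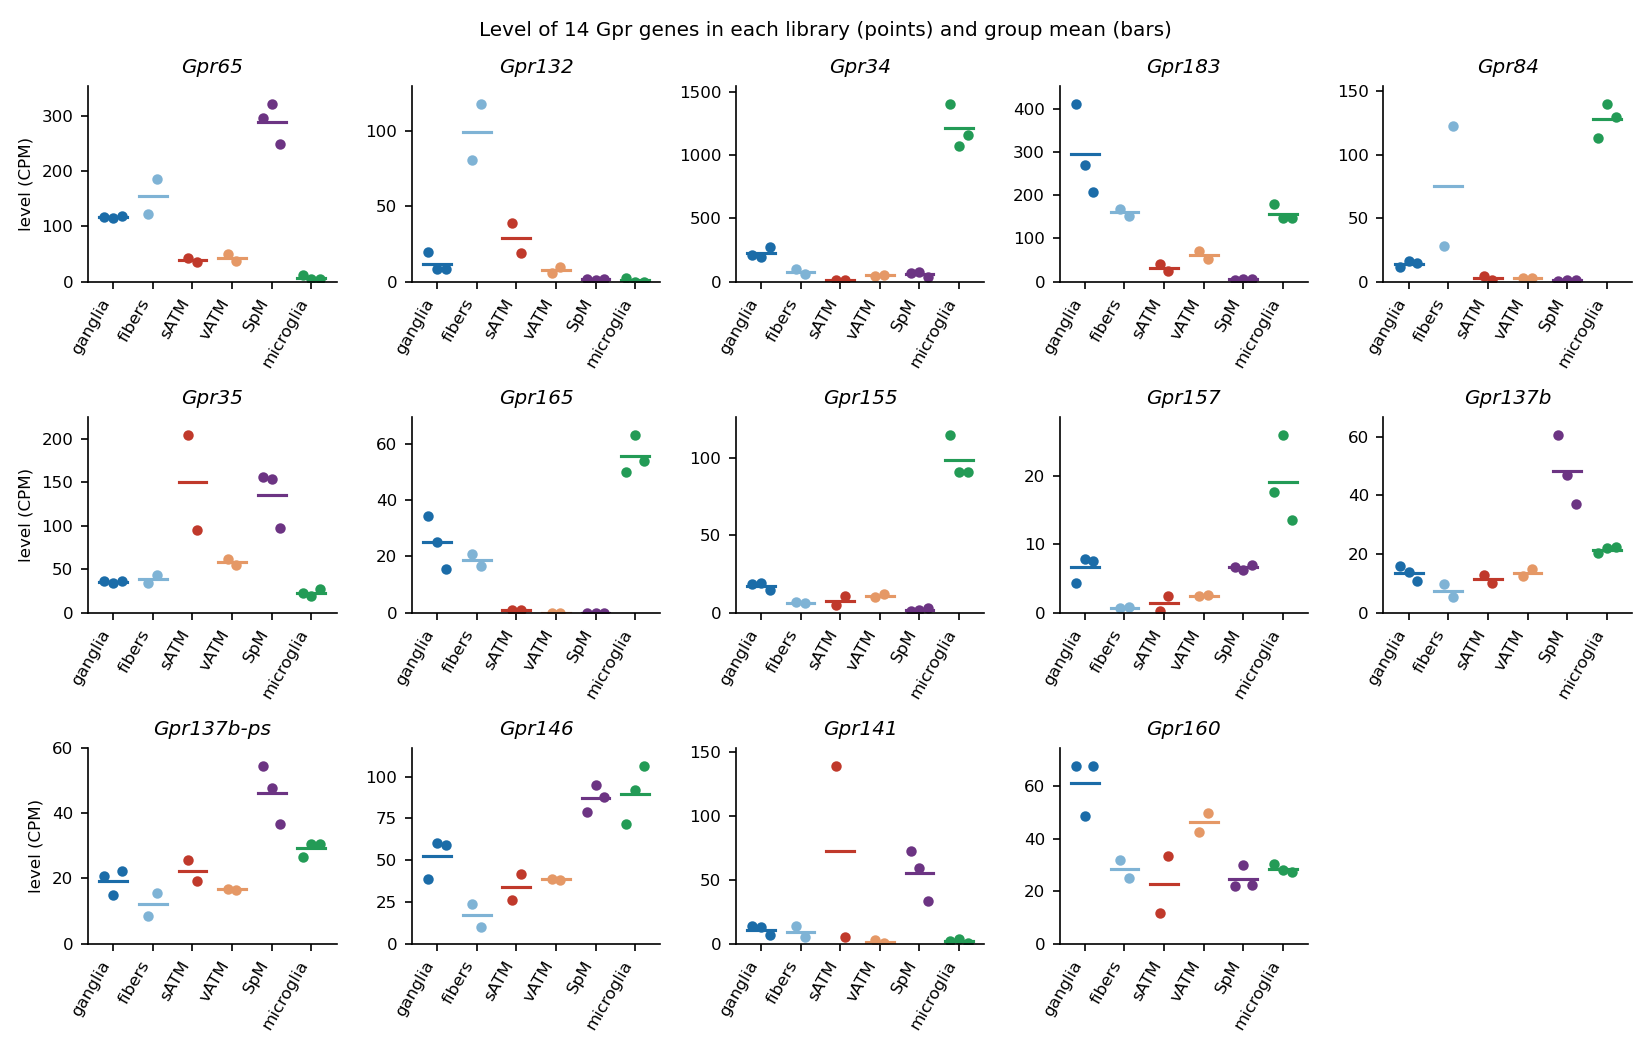
Level in CPM (linear axes from 0) of 14 of the Gpr genes that differed among groups, 1 panel per gene, with 1 point per library and a bar at the group mean. Gpr34 reaches 1403 CPM in microglia, Gpr183 412 CPM in ganglia and Gpr65 322 CPM in spleen.

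Acid-sensing receptors were split by tissue: Gpr65 was the spleen's, Gpr132 the fibers', and microglia were low in both. Gpr65 (TDAG8), which answers extracellular acid by raising cyclic AMP, lies at chr12:98268635-98276722 (mm10, plus strand) in 2 exons. Its level was 296, 322 and 248 CPM in spleen, while fibers had 122 and 186, and ganglia 118, 114 and 118. It was 42.0 and 35.4 CPM in sATM, 49.3 and 37.6 in vATM, but 12.1, 4.49 and 4.56 in microglia. No library of spleen overlapped another group, SAM lay above both fat groups, and each microglia library lay below all others. Gpr65 rose in spleen against the mean of the other 5 groups by 2.63 ± 0.23 (log2 fold change ± SE, adjusted p = 5.2e-07) and fell by 3.73 ± 0.34 in microglia (adjusted p = 1.08e-06). Without microglia 1, its highest microglia library, that value was -4.47. It rose in SAM by 1.63 ± 0.22 (adjusted p = 0.000124) and in fibers against sATM by 1.996 ± 0.415 (adjusted p = 0.0128). The last call was lost without sATM 1 (adjusted p = 0.121), sATM 2 (0.151), vATM 1 (0.0509) or vATM 2 (0.0509), the spread being shared by all groups.

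Gpr132, a relative of the proton sensors that also answers oxidised fatty acids, was highest in fibers. It measured 80.7 and 118 CPM in fibers, 39.2 and 19.2 in sATM, 19.4, 8.10 and 8.43 in ganglia, and 5.87 and 9.83 in vATM. Spleen had 1.66, 0.766 and 1.83 CPM, and microglia 2.08, 0 and 0. Both fiber libraries stood above every other library, and spleen and microglia lay below all others. Gpr132 rose in SAM by 3.05 ± 0.45 (adjusted p = 0.000337), and fell by 3.07 ± 0.68 in spleen (adjusted p = 0.00496) and fell by 3.84 ± 0.74 in microglia (adjusted p = 0.00149). These sizes lean on the 24 counts of microglia 1: without that library microglia are at 0, and neither the SAM nor the spleen comparison then has a defined size, since each averages a group at 0. Fibers against sATM gave 1.78 ± 0.81, which was not called (adjusted p = 0.223). The raw gene-body counts, introns included, ordered the groups otherwise: they were 1005 and 987 in vATM against 787 and 2493 in fibers and 351 to 396 in ganglia, and 6.48% of them remained as corrected counts in vATM against 25.6% in fibers.

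Gpr4, the endothelial proton sensor, had at most 4.81 CPM in any library, was above background in no group and was not called (adjusted p = 0.418).

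Lipid and metabolite receptors included the highest level of the whole family, that of Gpr34. Counting Gpr132, which is on the acid list too, 5 of the 9 tested (of 12 listed) differed among groups. Among all tested genes 22.2% did. Gpr34, a receptor for lysophosphatidylserine and a known microglial gene, lies at chrX:13632769-13640858 (mm10, plus strand), inside Cask on its opposite strand. Its level was 1403, 1072 and 1157 CPM in microglia, 211, 196 and 276 in ganglia, 98.9 and 56.2 in fibers, 65.7, 77.7 and 38.2 in spleen, 43.5 and 53.0 in vATM, and 13.8 and 12.6 in sATM. Microglia and ganglia each stood clear of every other group, sATM lay below all of them, and spleen overlapped both fibers and vATM, which did not overlap each other. The group mean in microglia was 5.32 times that in ganglia and 91.7 times that in sATM. Scaled by length, Gpr34 in microglia was the highest level of any Gpr gene, at 639.5 CPM per kb, against 134.8 for Gpr65 in spleen and 100.8 for Gpr183 in ganglia. Gpr34 rose in microglia by 4.37 ± 0.20 (adjusted p = 5.84e-10) and fell by 2.91 ± 0.25 in fat (adjusted p = 1.15e-06). In fibers it was 2.55 ± 0.38 above sATM (adjusted p = 0.00176), while the SAM value of 0.68 ± 0.20 was below the size needed for a call. Beside the ganglia level, the 5 microglia markers summed to 638 to 998 CPM in ganglia, 78.0 to 120.1 in fibers and 11.2 to 98.0 in fat and spleen, and P2ry12, the most abundant of them in microglia, was at 196 to 219 CPM in ganglia and 7.13 to 92.2 in the fiber, fat and spleen libraries. The part of these markers' cells in the ganglia's Gpr34 was not tested.

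Gpr183 (EBI2), the receptor for the oxysterol 7α,25-dihydroxycholesterol that guides immune cells in lymphoid tissue, had the highest mean CPM of the Gpr genes in ganglia, while per kb it came after Gpr34 there (100.8 against 120.2 CPM per kb). It lies at chr14:121952331-121965193 (mm10, minus strand), within Ubac2 on the opposite strand, as does Gpr18. Ganglia held 412, 269 and 208 CPM, fibers 168 and 152, microglia 179, 147 and 147, vATM 69.9 and 52.0, sATM 41.0 and 23.3, and spleen 3.58, 4.70 and 6.09. Every ganglia library exceeded every other library, fibers and microglia overlapped, and all of these exceeded fat, which exceeded spleen. The ganglia mean was 61.9 times the spleen mean. Gpr183 rose in SAM by 2.65 ± 0.20 (adjusted p = 3.63e-07), in microglia by 1.56 ± 0.22 (adjusted p = 8.66e-05) and in fibers against sATM by 2.32 ± 0.39 (adjusted p = 0.00352), and fell by 4.50 ± 0.33 in spleen (adjusted p = 9.32e-08). The call against sATM was lost without sATM 2 (adjusted p = 0.0765).

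Enzymes that make or break lipid ligands were listed with the receptors, and 1 of 5 tested differed among groups, near the 22.2% of all tested genes. Ch25h, which makes the precursor 25-hydroxycholesterol, measured 45.8 ± 2.90 CPM in fibers (mean ± SD, n = 2), 23.2 ± 7.55 in ganglia (n = 3), 3.35 ± 0.668 in sATM (n = 2), 2.73 ± 0.0353 in vATM (n = 2), 0.995 ± 0.339 in microglia (n = 3) and 0.558 ± 0.966 in spleen (n = 3). It rose in SAM by 4.47 ± 0.52 (adjusted p = 3.47e-05). Hsd3b7, which breaks the Gpr183 ligand down, was at 10.4 to 19.7 CPM in all group means and was not called, and Cyp7b1, which adds the other hydroxyl group, was at most 2.35 CPM in any group mean.

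Gpr84, a receptor for medium-chain fatty acids that is induced in activated myeloid cells, was high in microglia and uneven in fibers. It lies at chr15:103308235-103310438 (mm10, minus strand). Microglia held 113, 140.0 and 130.0 CPM, fibers 27.8 and 122, ganglia 11.8, 16.1 and 14.4, sATM 4.33 and 1.38, vATM 2.75 and 2.58, and spleen 0.249, 1.20 and 1.52. The fiber libraries differed widely, SAM fibers 2 falling within the microglia range, and ganglia lay above all fat and spleen libraries. Gpr84 rose in microglia by 4.43 ± 0.36 (adjusted p = 2.56e-07), in SAM by 2.59 ± 0.35 (adjusted p = 0.000164) and in fibers against sATM by 4.82 ± 0.75 (adjusted p = 0.00219). Without SAM fibers 2 the last 2 values were 1.85 and 3.34, without SAM fibers 1 the fibers against sATM value was 5.48, and without sATM 1 or sATM 2 it was 5.56 or 4.09, all still called. The gene fell by 4.06 ± 0.58 in spleen (adjusted p = 9.84e-05) and fell by 2.82 ± 0.46 in fat (adjusted p = 0.000614). The table listed whole values for it, but at the olfactory density DNA would give it 24.7 counts in SAM fibers 1 and 7.53 in SAM fibers 2, which held 93 and 588.

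Gpr35, known for its high level in gut and immune cells and for answering tryptophan metabolites, had its higher levels in sATM and spleen. Its level was 205 and 95.4 CPM in sATM, 156, 153 and 97.4 in spleen, 61.2 and 54.6 in vATM, 33.8 and 43.1 in fibers, 36.0, 33.5 and 36.1 in ganglia, and 22.8, 19.4 and 26.8 in microglia. Spleen and sATM overlapped and stood above the rest, followed without overlap by vATM, SAM and microglia. Gpr35 rose in spleen by 1.48 ± 0.21 (adjusted p = 0.000116) and fell by 1.59 ± 0.26 in microglia (adjusted p = 0.000428). In fat it was 1.04 ± 0.20 higher (adjusted p = 0.00278), at the edge of the size needed: without sATM 1 it was 0.81 and without SpM 3 0.99, and with RLE scaling 0.93. From sATM to fibers it fell by 1.96 ± 0.38 (adjusted p = 0.00791), a call lost without sATM 1 (adjusted p = 0.0764) or SAM fibers 1 (0.053).

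The other receptors of this list were low. Gpr18, linked to N-arachidonyl glycine, lay above background in ganglia, sATM, vATM and spleen at 2.21 to 14.3 CPM in those libraries, and was not called (adjusted p = 0.166). Gpr171, a receptor in the P2Y neighbourhood that lies within Med12l on the opposite strand, measured 21.5 and 4.37 CPM in fibers, 11.8, 4.12 and 5.62 in ganglia, and at most 7.86 in any other library (microglia 2). It was called higher in SAM (2.49 ± 0.69, adjusted p = 0.0294) but lay above background in every library of no group. Its 72 counts in SAM fibers 1 compare with 35.5 at the olfactory density there. Gpr171 was not called once SAM fibers 1 was left out (1.66, adjusted p = 0.207), nor without SAM ganglia 1 (adjusted p = 0.0774), sATM 1 (0.0861), vATM 1 (0.109), vATM 2 (0.0713), SpM 2 (0.0506) or microglia 3 (0.0534). A replicate block (0.0515), leaving out the 3 libraries with the most DNA (0.0885) and limma on RPKM (0.0563) ended the call as well. Gpr55, a receptor for lysophosphatidylinositol, was at 17.9 and 5.41 CPM in fibers and at most 7.02 elsewhere, lay above background in spleen alone among the groups, and was not called (adjusted p = 0.402). Gpr82, beside Gpr34 in Cask, reached 5.38 CPM (adjusted p = 0.224). Gpr174, Gpr31b and Gpr119 did not pass the filter, with at most 1.96, 1.78 and 0.255 CPM in any library.

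Microglia shared one more receptor with SAM that the fat and spleen groups nearly lacked. Gpr165, which has no agreed ligand, lies at chrX:96713468-96719388 (mm10, plus strand) in 5 exons. Microglia held 49.8, 63.1 and 53.8 CPM, ganglia 34.4, 25.1 and 15.4, and fibers 20.6 and 16.4. It was at 1.02 and 0.920 CPM in sATM, from 4 and 8 counts, and listed at 0 in all libraries of vATM and spleen, whose raw gene-body counts were 3 and 10, and 0, 13 and 18. The 3 tissues that held it did so in every library, and ganglia and fibers overlapped. Against 3 counts over the vATM libraries (0.182 CPM), the group mean was at least 306-fold higher in microglia, at least 137-fold in ganglia and at least 102-fold in fibers. Against the same floor over spleen (0.108 CPM) the bounds were 514-fold, 231-fold and 171-fold. Both sets of bounds hold for the corrected counts and allow for counting error only. Raw counts that were taken out with the DNA are not covered by them. Fibers exceeded sATM by 4.24 ± 0.56 (adjusted p = 0.00152). Gpr165 was called higher in SAM (adjusted p = 3.78e-07) and in microglia (adjusted p = 3.99e-08), without a defined size since both comparisons average groups at 0. With raw gene-body counts the microglia call held (4.28, adjusted p = 0.00421). Those in SAM (2.54, adjusted p = 0.279) and in fibers against sATM (2.25, adjusted p = 0.465) were lost.

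Among the intracellular proteins, 3 of 8 tested (of 11 listed) differed among groups, against 22.2% of all tested genes. None of those 8 was called in fat or in fibers against sATM. Gpr155 (LYCHOS), a lysosomal cholesterol sensor, was a microglial gene. It measured 115, 90.9 and 90.6 CPM in microglia, 18.7, 18.9 and 14.2 in ganglia, 9.94 and 11.7 in vATM, 5.09 and 10.3 in sATM, 6.87 and 5.83 in fibers, and 0.748, 1.86 and 3.04 in spleen. Microglia were clear of ganglia, ganglia of the rest, and spleen lay below all. It rose in microglia by 3.81 ± 0.27 (adjusted p = 5.77e-08) and fell by 3.09 ± 0.40 in spleen (adjusted p = 3.44e-05).

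Gpr137b, a lysosomal membrane protein tied to nutrient signalling, and Gpr137b-ps, its annotated pseudogene copy nearby on the same chromosome, were highest in spleen. Gpr137b held 60.6, 46.9 and 37.0 CPM in spleen, 20.2, 21.9 and 22.2 in microglia, and 5.20 to 15.9 in the other libraries. The copy held 54.6, 47.7 and 36.8 CPM in spleen, 26.6, 30.6 and 30.7 in microglia, and 8.37 to 25.7 in the others. Each rose in spleen, by 1.93 ± 0.23 (adjusted p = 1.61e-05) and 1.28 ± 0.22 (adjusted p = 0.000729). With raw gene-body counts neither was called among groups (adjusted p = 0.339 and 0.812), and the copy's spleen call was lost (adjusted p = 0.432). Their longest transcripts share 15.8% of windows of 50 bases letter for letter, so reads could be split between them and each value is uncertain. Gpr137b was also called lower in SAM, at -1.008 ± 0.238 (adjusted p = 0.0120), a size that dropped below 1 without SAM ganglia 3 (-0.94), SAM fibers 2 (-0.85) or SpM 1 (-0.95), and under RLE scaling (-0.83).

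The other tested members of this list were not called among groups. Gpr108, a Golgi protein, ranged from 26.9 to 54.2 CPM over the 15 libraries and was not called (adjusted p = 0.204). Gpr107, another Golgi protein, ranged from 8.37 to 24.5 CPM (adjusted p = 0.349), and Gpr89, which sets Golgi acidity, from 0 to 9.65 CPM (adjusted p = 0.407). Gpr137 ranged from 5.60 to 24.7 CPM (adjusted p = 0.506) and Gpr180 from 2.04 to 21.4 CPM (adjusted p = 0.377). Gpr137c, Gpr161 and Gpr143 did not pass the filter, with at most 0.492, 1.39 and 0.345 CPM. Gpr108, Gpr137, Gpr180, Gpr18 and Gpr171 had the highest CPM per kb of the members that were not called, and a missed threshold does not show that their levels were equal.

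Of the tested receptors of other immune or unassigned roles, 4 differed among groups and 5 did not, beside 22.2% of all tested genes that differed. Gpr141, which has no agreed ligand, was high in spleen at 72.1, 58.7 and 33.5 CPM and split in sATM, at 139 in sATM 1 and 5.40 in sATM 2. Other groups held 13.6, 12.6 and 6.42 (ganglia), 13.7 and 4.79 (fibers), 2.39 and 0.369 (vATM) and 1.90, 3.65 and 0.456 CPM (microglia). It rose in spleen by 2.94 ± 0.58 (adjusted p = 0.00208), and by 3.76 without sATM 1. It fell by 2.90 ± 0.87 in microglia (adjusted p = 0.0314), which was -2.22 without sATM 1, and the call was lost without microglia 1 (adjusted p = 0.0872) or microglia 3 (0.154).

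Gpr146, studied in liver for its effect on plasma cholesterol, lies within 3110082I17Rik on the opposite strand. It was high in both microglia (71.4, 91.8 and 107 CPM) and spleen (78.6, 94.7 and 87.8), which overlapped, and at 9.78 to 60.03 CPM in all other libraries. It rose in microglia by 1.18 ± 0.24 (adjusted p = 0.00227) and in spleen by 1.12 ± 0.24 (adjusted p = 0.00354). Both calls were lost with raw gene-body counts, at 0.72 in microglia and 1.44 in spleen (adjusted p = 0.14 in spleen). Gpr157, a receptor of neural progenitor cilia, held 17.7, 26.1 and 13.5 CPM in microglia, 6.24 to 6.999 in spleen and 4.39 to 7.84 in ganglia. Its level was at most 2.58 in fat and fibers, and it rose in microglia by 2.87 ± 0.41 (adjusted p = 9.52e-05). That call too was lost with raw gene-body counts (1.43, adjusted p = 0.155). Gpr160, found in every group, measured 67.9, 48.6 and 67.6 CPM in ganglia, 42.7 and 50.02 in vATM, and 11.7 to 33.5 in the other libraries. It differed among groups (adjusted p = 0.0260) but was called in none of the 5 directed comparisons, and the call was lost without SAM ganglia 1 (adjusted p = 0.0854), SAM ganglia 3 (0.0871), vATM 1 (0.101), vATM 2 (0.135), SpM 1 (0.0552), SpM 3 (0.0561), microglia 1 (0.0772) or microglia 3 (0.0515).

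Receptors known from neurons and glia made up the largest list, and their levels were mostly low apart from Gpr165. Of its 27 members 14 were tested and 1 differed among groups, against 22.2% of all tested genes. Of the 27, 25 lay above background in no group, as did 48 of all 73 members, and the share of all genes was not computed. The exceptions were Gpr165 and Gpr19 (vATM only, at a mean of 2.01 CPM). Gpr17, a receptor of oligodendrocyte precursors, had its highest group mean in fibers, at 12.3 CPM. Gpr149 was called higher in microglia (adjusted p = 0.0450), but the microglia libraries held 0, 35 and 0 counts and fibers and vATM none, so no size is given. That call was lost in 14 of 20 alternatives, and without microglia 2 the gene does not pass the filter. The constitutively active receptors Gpr3, Gpr6 and Gpr12 were tested, above background in no group and not called. Of 13 further members, which held low values too, 5 were tested and not called, among them Gpr15, Gpr20, Gpr33 and Gpr182, and the other 8 did not pass the filter, with at most 4.48 CPM (Gpr25, SAM fibers 1). Gpr15 lay above background in sATM, and Gpr20, Gpr33 and Gpr182 in no group.

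Counted by comparison, calls among the tested members were most numerous in microglia and spleen, where more of all genes were called too. In microglia 8 of 46 were called higher (17.4%) and 5 lower (10.9%), against 7.26% and 6.47% of all genes. Higher were Gpr34, Gpr84, Gpr165, Gpr155, Gpr157, Gpr183, Gpr146 and Gpr149, and among those lower were Gpr65, Gpr132, Gpr35 and Gpr141. In spleen 6 were higher (13%) and 4 lower (8.7%), against 6.72% and 5.72%. Those higher were Gpr65, Gpr35, Gpr141, Gpr146, Gpr137b and Gpr137b-ps, and those lower were Gpr183, Gpr84, Gpr155 and Gpr132. Markers of other cells also moved with spleen: the 4 B cell markers summed to 76.0 to 105 CPM there and 12.7 to 42.9 elsewhere (2 of 4 tested called higher, Cd79a and Cd79b), and the 4 T cell markers to 15.7 to 23.2 against 1.04 to 17.04 (1 of 3, Cd4). The 3 endothelial markers summed to 46.3 to 65.5 CPM against 0 to 14.3, but only Pecam1 was called higher in spleen, at 44.7 to 65.3 CPM. Kdr and Cdh5 had log2 fold changes of -3.40 and -0.32 in spleen and were not called. None of the B cell, T cell and endothelial markers was at 0 throughout the spleen libraries, and their part in the spleen results was not tested. In fat 2 were higher, Gpr35 among them, and 2 lower, Gpr34 and Gpr84 (4.35% each), against 5.66% and 2.9%. These comparisons share libraries, since each group also stands in the mean that the others are set against.

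In SAM 6 members were called higher (13%) and 1 lower (2.17%), against 5.71% and 3.44% of all genes. They were Gpr183, Gpr165, Gpr65, Gpr84, Gpr132 and Gpr171, with Gpr137b lower. The count was 11 without SAM fibers 2. For fibers against sATM 5 were higher, Gpr34, Gpr183, Gpr65, Gpr84 and Gpr165, and Gpr35 was lower (10.9% and 2.17%), against 1.85% and 2.99%. In the raw gene-body counts, which keep introns and DNA, no member was called in SAM or in fibers against sATM. In fibers against sATM no gene of any kind was called in those counts, and the share of all genes in SAM is not given here. The fibers against sATM values of Gpr183 (-0.44), Gpr34 (-0.71) and Gpr65 (-0.25) were below 0 there. The median log2 fold change of the 46 tested members was 1.64 in SAM (1.61 with groups at 0 set to 3 counts), against 0.02 for all genes (0.05), and 1.89 in fibers against sATM, against 0.00 (0.06). In fat it was -1.51 (-1.28) against -0.06 (-0.09), in microglia 0.69 (0.68) against 0.29 (0.25), and in spleen -0.38 (-0.55) against -0.03 (-0.08).

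The SAM medians include members at the level of stray DNA, which was heaviest in fibers: the olfactory density was 15.99 and 4.87 counts per kb there and 0.0532 to 6.84 elsewhere. With each library's olfactory density subtracted from the counts of genes with whole values, 6 members were called in SAM, against 7 without it. Gpr137b lost its call there, its value of -0.96 being below the size needed. Gpr65, Gpr132, Gpr165 and Gpr137b had values that were not whole, so nothing was subtracted from them. Markers of other cells also moved with SAM. The 8 sympathetic neuron markers summed to 249 to 676 CPM in fibers, 95.9 to 129 in ganglia and at most 51.7 elsewhere, with none at 0 throughout a group, and all 7 tested rose. The 6 Schwann and satellite glia markers summed to 134 to 220.0 CPM in fibers and 35.1 to 77.7 in ganglia, with 5 of 6 called higher. Fibers also held the highest summed neutrophil markers (92.7 to 109 CPM, 2 of 3 tested called higher in SAM, Ly6g at most 0.416 there) and fibroblast markers (98.3 to 148 CPM, Pdgfra at 0). Their part in the SAM results was not tested.

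**Figure D4:**
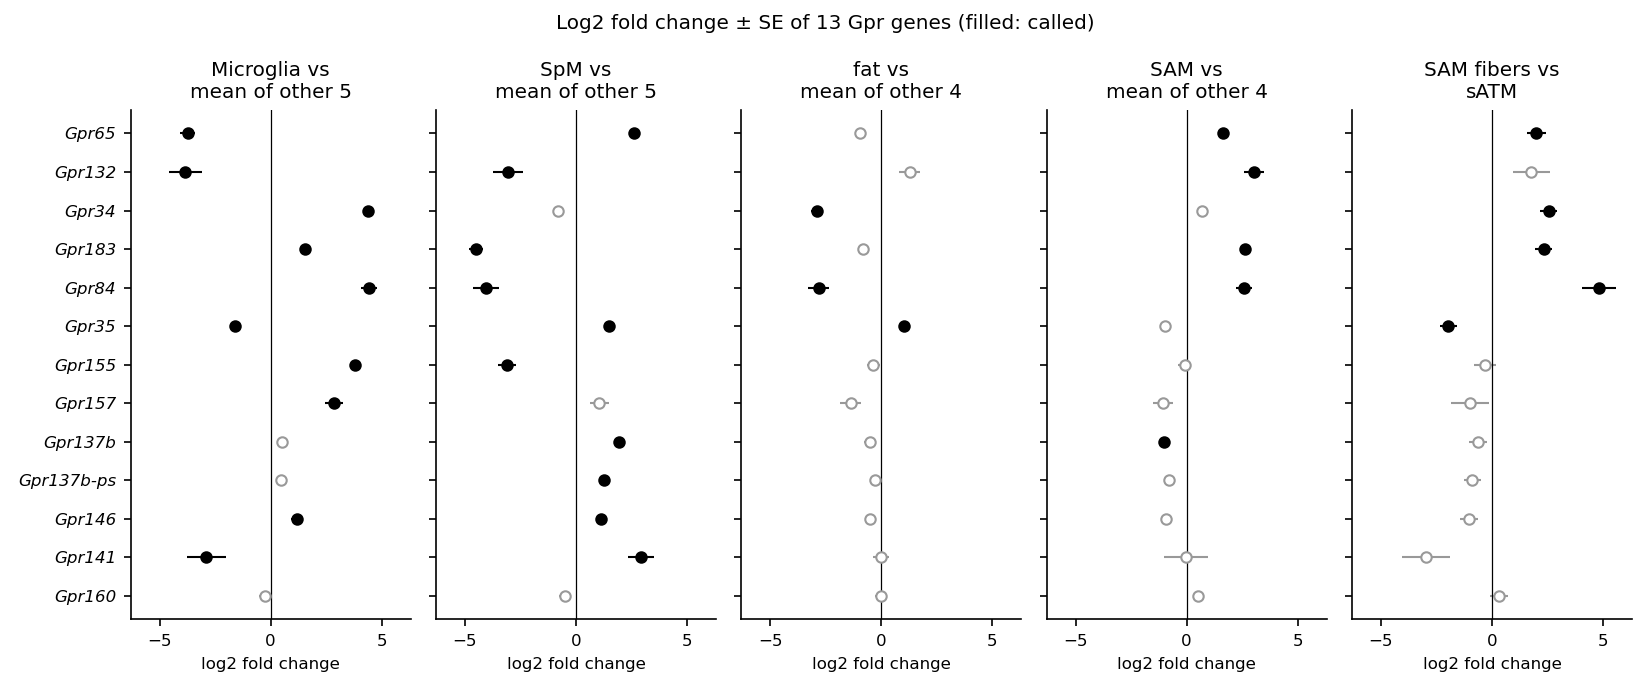
Log2 fold change with its SE for 13 Gpr genes in 5 comparisons, filled where called; Gpr165 is left out because groups at 0 leave its size undefined. Gpr84 runs from 4.43 in microglia to -4.06 in spleen and Gpr65 from -3.73 to 2.63.

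The counts for proteins that carry or end a receptor's signal stand beside the 22.2% of all tested genes that differed among groups. Among G protein alpha subunits 3 of 11 tested differed, near that share. One of them was Gna15, a subunit of blood cells that couples many receptors to calcium: its mean was 172 ± 42.8 CPM in microglia (SD, n = 3), 71.0 ± 11.2 in ganglia (n = 3) and 11.6 to 35.01 in the other group means. It rose in microglia by 2.68 ± 0.29 (adjusted p = 6.87e-06). Gnai2, the inhibitory subunit, and Gnas, the stimulatory one, differed among groups (adjusted p = 0.00926 and 0.0481) without a directed call. Of 6 adenylyl cyclases tested, 2 differed. Adcy3 stood at 64.4 ± 21.6 CPM in spleen and at most 4.24 in any other group mean, a rise of 4.73 ± 0.38 (adjusted p = 2.19e-07), and Adcy7 fell by 1.007 ± 0.237 in spleen (adjusted p = 0.00723) and rose in fat by 1.19 ± 0.19 (adjusted p = 0.000495).

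RGS proteins, which speed a G protein's return to rest, differed in 9 of 13 tested. Rgs10 was at 594 ± 74.0 CPM in microglia (n = 3), 313 ± 53.1 in ganglia (n = 3) and 56.01 ± 5.41 in spleen (n = 3), rising in microglia by 2.16 ± 0.17 (adjusted p = 1.87e-07). Rgs18 was at 22.1 to 41.5 CPM in SAM and fat means and below 1 in spleen and microglia, and Rgs14 was highest in fat, at 44.1 and 39.5 CPM, where it rose by 2.23 ± 0.26 (adjusted p = 2.68e-05). Among receptor kinases and arrestins 3 of 7 tested differed. Grk3 was at 234 ± 44.1 CPM in spleen, where it rose by 2.503 ± 0.341 (adjusted p = 6.37e-05), Grk6 fell by 1.35 ± 0.27 in microglia (adjusted p = 0.00190), and Arrb2 differed among groups (adjusted p = 0.00794) without a directed call.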

How the data were processed

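Per the submitters' processing notes, STAR, HOMER and mm10 were used; no source used here gives versions, settings, strand use or how DNA was removed, so a gene and its antisense partner cannot be told apart. The authors deposited estimated counts per gene with DNA contamination removed, raw counts over gene bodies, and RPKM values. Per the deposited tables' columns, lengths and coordinates are the authors'. Estimated counts were rounded to whole numbers. The test was that of edgeR 4.0.16 (R 4.3.3), after filterByExpr with a minimum count of 10 (15289 genes left), TMM factors 0.668 to 1.40, 1 mean per group over 15 libraries, quasi-likelihood F-tests and Benjamini-Hochberg adjustment over all genes tested. Called means adjusted p below 0.05 and, in directed comparisons, a log2 fold change of at least 1. Levels are CPM after TMM scaling. The floor is 3 counts, or 0.249 to 0.897 CPM by library, for counting error only. The common biological coefficient of variation was 0.680.

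The genes named with every library are those called among groups with at least 5 CPM and above background in their highest group; the acid and lipid receptors, the 5 uncalled members with the highest CPM per kb, and up to 3 partner genes per list were added. Some results for single genes are not reported here. Members and lists were chosen with earlier results of these data known. The test was checked on simulated counts. Alternatives were DESeq2 1.42.0, limma 3.58.1 on log2(RPKM + 0.1), RLE scaling, no filter, raw gene-body counts, a replicate block, DNA background as a covariate or subtracted, other background lines, and leaving out each library. The subtraction was made only for genes with whole values.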

Additional observations from a re-analysis of the deposited data

Results flagged for a closer look

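Gpr85, a conserved receptor of brain, matches the symbol rule in the raw and RPKM tables but has no row in the corrected counts and enters no comparison above. Its deposited RPKM was 34.6 in SAM ganglia 1 and 19.6 in sATM 1, but 0.580 and 2.13 in the other ganglia libraries and 0.818 in sATM 2. In the remaining libraries it was 0.0636 to 2.85. Its raw gene-body counts per kb exceeded the 95th percentile of the olfactory receptor genes in 7 of 15 libraries. It was noted because it is a signal above that background in data outside the main measurement.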

How the results depend on the processing

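Of 55 single-gene calls, 16 held under every alternative run, 38 were lost under at least 1, and 3 changed sign under raw gene-body counts: fibers against sATM gave -0.44 for Gpr183, -0.71 for Gpr34 and -0.25 for Gpr65. Raw gene-body counts also gave 7 members called among the groups (15 in the corrected counts), 5 in microglia (13) and 5 in spleen (10). Among those no longer called among groups were Gpr35, Gpr137b, Gpr137b-ps, Gpr146, Gpr155, Gpr157 and Gpr160. The same counts gave 1 in fat (4), 0 in SAM (7) and 0 in fibers against sATM (6), where no gene of any kind was called. With them 8 members lay above background in microglia (15). Without the count filter, SAM had 11. Leaving out 1 library at a time gave 14 to 16 among groups, 12 to 13 in microglia, 9 to 11 in spleen, 3 to 6 in fat, 6 to 11 in SAM and 4 to 9 in fibers against sATM, and 8 to 14 above background in fibers. The cause was not tested. RLE scaling moved the median of all genes from 0.02 to 0.19 in SAM and from 0 to 0.28 in fibers against sATM, where 57.1% of calls were then higher in place of 38.2%; in fat DESeq2 gave 48.2% in place of 66.1%. It changed no direction of a member's call.

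The labels tie no replicate number to an animal or day. Same-numbered libraries of different groups had a median correlation of deviations of 0.108 (33 pairs, 17 over 0.1) against -0.0876 (60 pairs) for different numbers, and 8 of 15 libraries correlated best with their own number. Deviations were taken from group means, so the libraries within fibers, sATM and vATM mirror each other. The values for same and different numbers are therefore not independent. The libraries numbered 1 outside fibers correlated at 0.173 to 0.615 with each other, and SAM fibers 1 at -0.396 to -0.0878 with them. A replicate block gave 15 members called among groups, 12 in microglia, 10 in spleen, 4 in fat, 6 in SAM (without Gpr171) and 6 in fibers against sATM. Leaving out the 3 libraries with the most DNA, a choice made after seeing the data, gave 14, 12, 10, 4, 8 and 6. Depth limits members below 3 counts, and DNA limits those with 1 coding exon in fibers.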
